A study of Mus musculus with 3 samples.

Results

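Interferon-stimulated genes, the genes that cells switch on in response to interferon, stood for the most part higher in both sublines of a murine colon carcinoma line than in the parental line, and highest in the slowly metastatic subline. The list held 53 such genes, taken by their symbols. Of these, 50 were represented by at least 1 of 72 named probes among 22911 named genes on the array, and no named probe was found for *Oas1b*, *Mx1* and *Mx2*. NM11 cells exceeded Colon26 cells by at least 2-fold in 42 of 50 genes, against 8.17% of all genes. LuM1 cells exceeded Colon26 cells by that much in 27 of 49 genes and NM11 cells in none of 50, against 12.9% and 11.1% of all genes. A few members went another way in LuM1 cells, at a rate near that of all genes. LuM1 cells fell 2-fold or more below Colon26 cells in 4 of 49 members (8.16%), against 11.7% of all genes. In *Ifitm1*, *Oasl1* and *Cmpk2* LuM1 cells fell that far below both other lines, as they did in 4.03% of all genes.

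Gene expression was measured in Colon26, a murine colon adenocarcinoma line of BALB/c origin (female), and in its sublines LuM1, which metastasizes rapidly, and NM11, which like Colon26 metastasizes slowly. All 3 lines were kept in the same serum-supplemented RPMI1640 medium and cultured for 3 days before total RNA was extracted, and neither the sample labels nor the methods name an interferon treatment. Each line was hybridized to 1 single-colour array, all on the same slide and from the same scan, and each subline stands for itself as a single line. The differences therefore have no replicate check and no p-value, and their precision is limited by the number of arrays.

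Interferons are secreted signalling proteins of antiviral defence. Type I and type III interferons act through receptors coupled to JAK kinases and lead to a complex of transcription factors, IRF9 among them, that binds the interferon-stimulated response element (ISRE). Interferon gamma acts through another element, the gamma-activated site (GAS). The genes switched on in this way encode antiviral enzymes, sensors of viral RNA, GTPases that attack pathogens inside the cell, and the factors of the pathway itself, and many tumor lines express part of them without added interferon.

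The start regions of these genes were searched for the cores of the ISRE and the GAS. Windows of 250 bases before to 50 bases after the annotated start were available from RefSeq (GRCm38.p6) for 39 of the 53 genes, in 45 windows. The core of the ISRE was searched as GAAANNGAAA on both strands, where N is any base, and in a repeat of the motif neighbouring matches overlap. It was present in 21 of the 39 genes (53.8%), whereas 3.99% of all 27025 genes with a window and 3.44% of all 32851 windows held it. Stretches are shown from genes that differed strongly between the lines and, for contrast, from *Socs1*, which did not. They are written 5′ to 3′ along the gene's own strand with the matched bases in capitals.

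*Isg15* (chr4:156200855-156200916, minus strand): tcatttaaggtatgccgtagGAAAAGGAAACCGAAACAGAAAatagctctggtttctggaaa
*Oas1a* (chr5:120907526-120907565, minus strand): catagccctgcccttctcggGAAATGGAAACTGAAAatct
*Ifit1* (chr19:34640765-34640833, plus strand): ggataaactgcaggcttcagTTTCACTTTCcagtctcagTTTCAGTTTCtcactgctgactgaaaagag
*Ifit3* (chr19:34583353-34583432, plus strand): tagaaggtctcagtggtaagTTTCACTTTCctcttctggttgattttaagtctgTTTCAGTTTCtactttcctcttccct
*Gbp2* (chr3:142620584-142620633, plus strand): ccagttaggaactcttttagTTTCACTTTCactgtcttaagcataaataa
*Gbp3* (chr3:142559979-142560034, plus strand): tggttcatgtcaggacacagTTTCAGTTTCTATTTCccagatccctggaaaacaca
*Igtp* (chr11:58199502-58199551, plus strand): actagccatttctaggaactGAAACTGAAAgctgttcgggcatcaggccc
*Irgm2* (chr11:58214893-58214942, plus strand): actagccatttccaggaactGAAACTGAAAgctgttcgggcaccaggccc
*Rsad2* (chr12:26456543-26456592, minus strand): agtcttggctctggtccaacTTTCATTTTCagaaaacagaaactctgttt
*Socs1* (chr16:10785584-10785639, minus strand): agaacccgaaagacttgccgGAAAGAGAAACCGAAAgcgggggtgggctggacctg

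The run of *Isg15* held 3 overlapping matches. In *Oas1a*, *Gbp3* and *Socs1* a pair of matches overlapped, and in *Ifit1* and *Ifit3* 2 matches lay apart. The stretches of *Igtp* and *Irgm2*, which are neighbours on chromosome 11, were identical at 48 of 50 bases. All 7 GTPase genes with a window held the core. It was found in 18 of 31 genes that were at least 2-fold higher in NM11 than in Colon26 cells (58.1%), and in 3 of the 8 others, which were *Ifih1*, *Eif2ak2* and *Socs1*. The GAS core, searched as TTCNNNGAA, was present in 13 of the 39 genes (33.3%) and in 9.55% of all genes with a window. A match describes these letters in this window only.

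**Figure D1:**
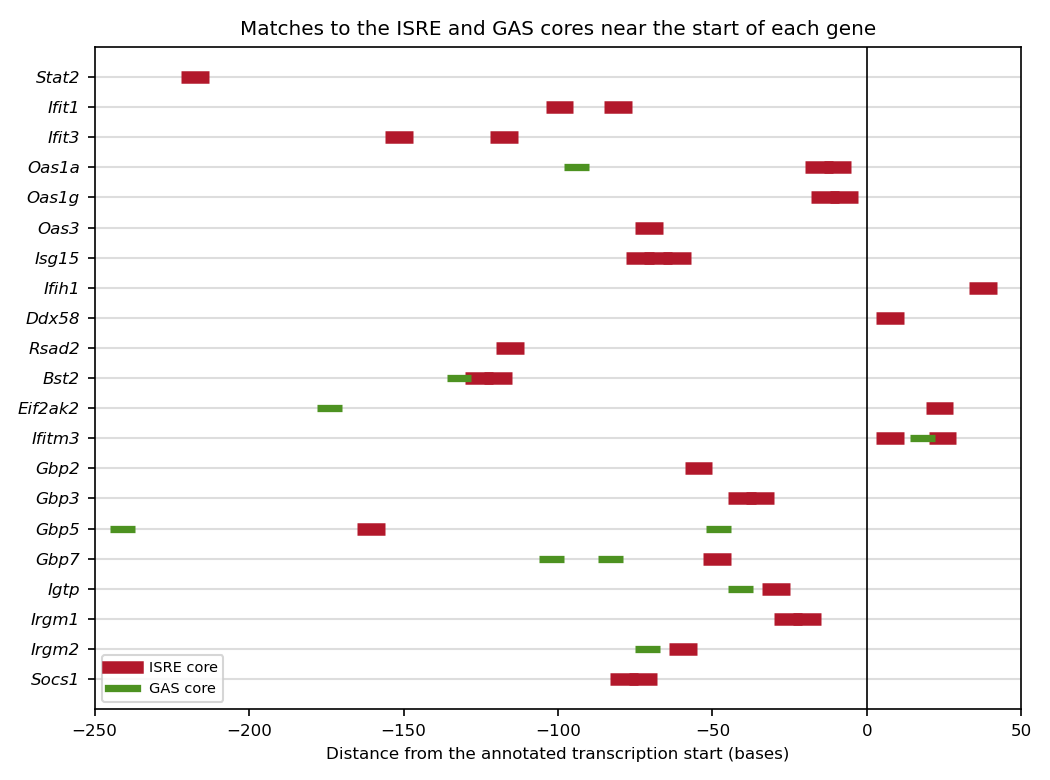
Position of each match to the ISRE core (thick red) and the GAS core (thin green) in bases from the annotated start, which is the vertical line at 0, for the 21 genes with an ISRE core match. Most ISRE matches lay before the start, and those of Ifih1, Ddx58, Eif2ak2 and Ifitm3 lay after it.

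Signals are given in arbitrary units after each array was scaled to the same 75th percentile of 585.1. The error after ± is that of the scanner software, near 10% of a bright signal and a larger share of a dim one, with n = 1 array. It covers no difference between cultures. Where the scanner software did not call a probe well above background, its ratio is a bound, written as "at least", and signals of different genes are not comparable. Of the 50 genes, 41 were well above background in Colon26 cells, 48 in LuM1 cells and all 50 in NM11 cells. Over all probes, not reduced to 1 per gene, 49.9% were well above background in Colon26, 53.8% in LuM1 and 52.5% in NM11 cells. 8 genes were well above background in both sublines and not in Colon26 cells, namely *Oas3*, *Ifi44*, *Gbp3*, *Gbp4*, *Gbp5*, *Gbp6*, *Gbp7* and *Iigp1*, a pattern that 4.06% of 14828 genes well above background on any array showed. *Rsad2* was well above background in NM11 cells alone.

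The 3 comparisons differed in how far the whole list was shifted. Between NM11 and Colon26 cells, 42 genes were at least 2-fold higher and 1 lower in NM11 cells, where 8.17% of all 14109 genes with a ratio or bound were higher and 7.74% lower. Between LuM1 and Colon26 cells, 27 genes were at least 2-fold higher and 4 lower in LuM1 cells, against a background of 12.9% higher and 11.7% lower. Between both sublines, 0 genes were higher and 27 of 50 were lower in LuM1 cells, against 11.1% and 8.5% of all genes. Among genes measured on both arrays, the median log2 ratio was 1.99 for NM11 over Colon26, 0.99 for LuM1 over Colon26 and -1.04 for LuM1 over NM11, and over all genes it was -0.02, -0.13 and -0.11. The comparisons share arrays, so they are not independent of each other.

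These shifts depend in part on how arrays are scaled. With the authors' processed values the median of all genes moved by 0.45 for LuM1 over Colon26 and 0.41 for LuM1 over NM11, and with scaling to *Hprt* it moved by -0.49 for NM11 over Colon26 and 0.59 for LuM1 over NM11. Scaling to *Hprt* left 34 genes higher in NM11 than in Colon26 cells, against 4.86% of all genes, and 17 lower in LuM1 than in NM11 cells, against 3.45% of all genes. The distance of the list's median from that of all genes was 2.01 for NM11 over Colon26, 1.12 for LuM1 over Colon26 and -0.93 for LuM1 over NM11. Scaling by 1 factor per array adds the same amount to every log2 ratio, so it cannot change this distance. In the same order, the distance was 1.93, 1.11 and -0.98 with quantile normalization and 1.72, 0.84 and -0.81 with normexp background correction.

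**Figure D2:**
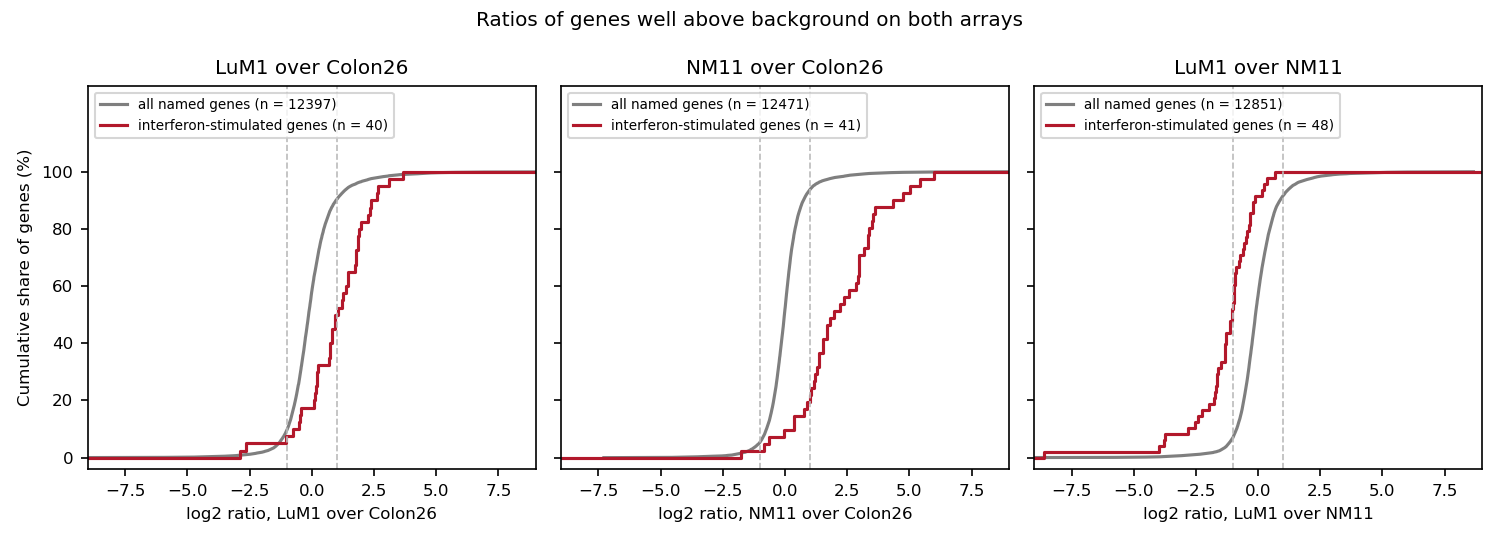
Cumulative share of genes (%) against the log2 ratio in each of the 3 comparisons, for interferon-stimulated genes (red) and all named genes (grey) that were well above background on both arrays, with dashed lines at 2-fold. The red curve lies to the right of the grey one for NM11 over Colon26 (medians 1.99 and -0.02) and to the left for LuM1 over NM11 (medians -1.04 and -0.11).

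The order of the lines was mostly the same from gene to gene. Of the 40 members detected on every array, 31 were lowest in Colon26 and highest in NM11 cells, an order that 12.4% of all genes showed, and for 22 of these each step exceeded 2 times the scanner error. Of 12249 genes measured on all 3 arrays, 1.54% showed that order with both steps beyond the error. 5 genes were lowest in LuM1 and highest in NM11 cells, namely *Ifit1*, *Ifitm1*, *Isg15*, *Oasl1* and *Samhd1*, in an order that 20.3% of all genes showed, and both steps exceeded the error in 3 of them. *Uba7* was highest in LuM1 cells beyond the error, *Isg20* and *Socs1* were highest in Colon26 cells, and *Eif2ak2* varied by no more than 1.17-fold. At the threshold of 2-fold, 27 genes were higher in both sublines than in Colon26 cells (4.53% of all genes), 25 were higher in NM11 than in both other lines (2.58% of all genes), and 3 were lower in LuM1 than in both others (4.03% of all genes). No member exceeded both other lines by 2-fold in LuM1 cells, where 7.33% of all genes did.

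**Figure D3:**
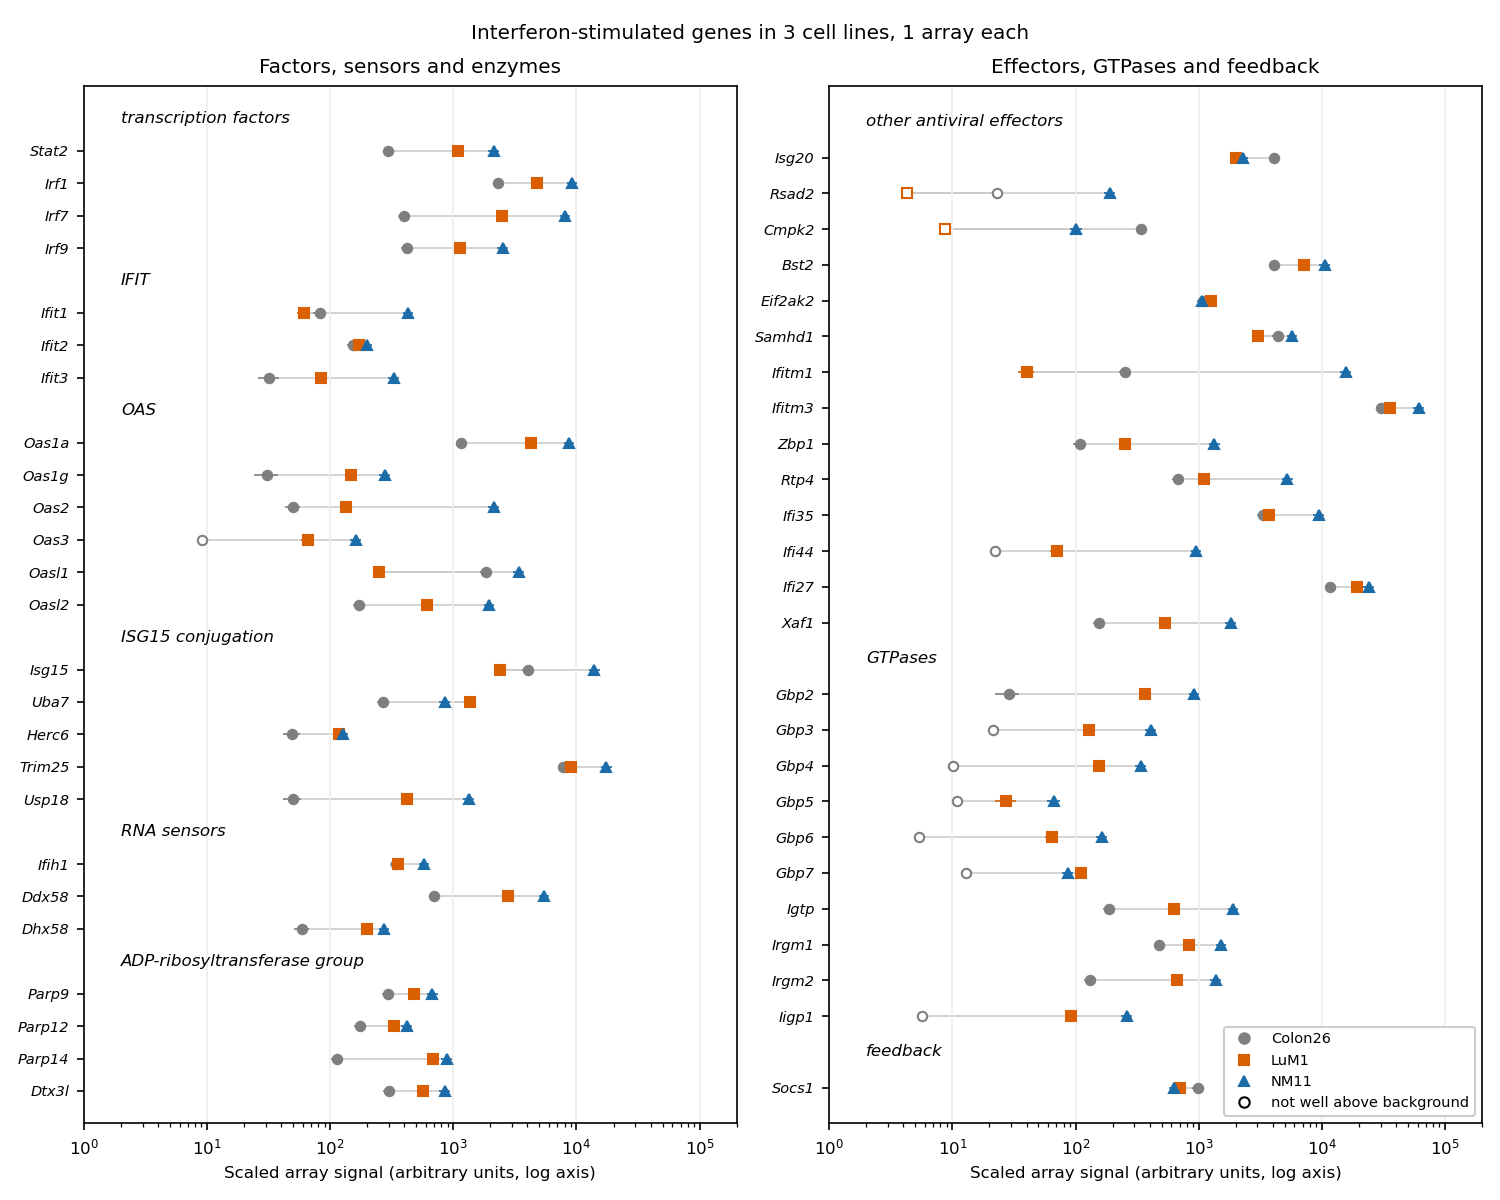
Scaled signal (log axis, arbitrary units) of the 50 interferon-stimulated genes in Colon26 (grey circles), LuM1 (orange squares) and NM11 cells (blue triangles), by role. Bars are the scanner error and open symbols mark signals not well above background. Most genes run from grey over orange to blue, and Ifitm1 spans the widest range, from 40.0 in LuM1 to 15731 in NM11 cells.

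The transcription factors of the list were at least 2-fold higher in both sublines by their brightest probe. The signal of *Irf7*, the factor that amplifies interferon production and is itself induced, was 397 ± 40.1 in Colon26, 2470 ± 247 in LuM1 and 8122 ± 812 in NM11 cells. It was thus 6.23-fold higher in LuM1 and 20.5-fold higher in NM11 than in Colon26 cells. *Irf9*, a DNA-binding part of the complex at the ISRE, gave 421 ± 42.5, 1140 ± 114 and 2509 ± 251 in the same order. *Stat2*, of the same complex, gave 296 ± 30.2, 1083 ± 108 and 2123 ± 212. *Irf1*, an early target of interferon gamma, gave 2323 ± 232, 4751 ± 475 and 9223 ± 922. In each of these genes NM11 cells had 1.94-fold to 3.29-fold the signal of LuM1 cells. A second probe of *Irf9* gave smaller log2 ratios over Colon26, 0.26 for LuM1 and 1.40 for NM11, against 1.44 and 2.57 for the probe used. A second probe of *Irf1* stayed under the threshold in LuM1 cells, at 1.76-fold, where the probe used gave 2.05-fold.

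The IFIT genes, whose proteins bind foreign RNA and block its translation, did not move as a group. *Ifit3* had a signal of 32.1 ± 6.42 in Colon26, 84.1 ± 9.44 in LuM1 and 327 ± 33.0 in NM11 cells, a 10.2-fold difference between NM11 and Colon26 cells. *Ifit1* gave 82.9 ± 10.1, 61.3 ± 7.50 and 431 ± 43.3, so that NM11 cells stood 7.03-fold above LuM1 cells while LuM1 and Colon26 cells differed by less than 2 times the scanner error (log2 ratio -0.43 ± 0.25). *Ifit2*, the direct neighbour of *Ifit3*, gave 154 ± 16.3, 170 ± 17.5 and 198 ± 20.2 and lay within 1.29-fold in all 3 lines.

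The oligoadenylate synthetases (OAS), which sense double-stranded RNA and activate RNase L, were at least 2-fold higher in NM11 than in Colon26 cells for 5 of 6 genes. *Oas2* had the widest range, with 49.9 ± 7.29 in Colon26, 135 ± 14.1 in LuM1 and 2126 ± 213 in NM11 cells. NM11 cells exceeded Colon26 cells 42.6-fold, and LuM1 cells did so 2.71-fold. A second probe of *Oas2* was not well above background in any line (12.4 in NM11 cells), so these values rest on 1 probe. *Oas1a* gave 1159 ± 116, 4286 ± 429 and 8740 ± 874, and its close copy *Oas1g*, beside it on chromosome 5, gave 30.9 ± 6.86, 148 ± 15.5 and 279 ± 28.3. The 2 genes share much of their sequence, and cross-hybridization between their probes was not tested. *Oas3*, next to *Oas2*, was not well above background in Colon26 cells (9.14) and gave 66.1 ± 8.05 in LuM1 and 161 ± 16.7 in NM11 cells, at least 2.50-fold and at least 6.11-fold higher.

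The OAS-like genes *Oasl1* and *Oasl2* are direct neighbours and differed from each other in LuM1 cells. *Oasl2* gave 173 ± 18.2 in Colon26, 616 ± 61.7 in LuM1 and 1955 ± 196 in NM11 cells. *Oasl1*, which is known to restrain the translation of *Irf7*, gave 1835 ± 184, 250 ± 25.5 and 3418 ± 342. LuM1 cells were thus 3.57-fold higher than Colon26 cells for *Oasl2* and 7.34-fold lower for *Oasl1*. For both genes NM11 cells had the highest signal, and for *Oasl1* the difference between NM11 and Colon26 cells, 1.86-fold, stayed under the threshold.

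All 5 genes of ISG15 conjugation were at least 2-fold higher in NM11 than in Colon26 cells, and 3 of 5 in LuM1 cells. *Isg15* encodes a ubiquitin-like protein that is attached to other proteins, and its signal was 4021 ± 402 in Colon26, 2384 ± 239 in LuM1 and 13999 ± 1400 in NM11 cells. *Usp18*, the protease that removes ISG15 and dampens receptor signalling, gave 49.7 ± 8.01, 420 ± 42.3 and 1341 ± 134. The subline NM11 stood 27.0-fold and LuM1 8.46-fold above Colon26 cells for *Usp18*, whereas for *Isg15* LuM1 cells were the lowest. *Uba7*, the enzyme that activates ISG15, was the sole member that exceeded both other lines in LuM1 cells by more than 2 times the scanner error, with 267 ± 27.2, 1369 ± 137 and 852 ± 85.3. *Herc6*, the mouse ligase of ISG15, gave 48.8 ± 7.77, 117 ± 12.6 and 127 ± 13.5, and *Trim25*, a ubiquitin ligase that activates RIG-I, gave 7837 ± 784, 9001 ± 900 and 17524 ± 1752. For *Herc6* the sublines did not differ beyond the error, and for *Trim25* LuM1 and Colon26 cells did not.

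Of 3 sensors of viral RNA, a pair were at least 2-fold higher in both sublines. *Ddx58*, which encodes RIG-I, had a signal of 701 ± 70.3 in Colon26, 2760 ± 276 in LuM1 and 5467 ± 547 in NM11 cells. *Dhx58*, which encodes the related helicase LGP2, gave 58.7 ± 8.22, 201 ± 20.6 and 274 ± 27.8. *Ifih1*, which encodes MDA5, gave 339 ± 34.4, 356 ± 35.9 and 581 ± 58.3, its largest ratio was 1.71-fold, and LuM1 and Colon26 cells did not differ beyond the error. The sensors with the widest ranges were thus *Ddx58*, 7.80-fold higher in NM11 than in Colon26 cells, and *Dhx58*, 4.67-fold higher.

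The 14 measured genes of other antiviral effectors were the most mixed group, with 10 at least 2-fold higher and 1 lower in NM11 than in Colon26 cells, and 3 higher and 3 lower of 13 in LuM1 cells. The genes of membrane proteins that block virus entry and release showed the extremes. *Ifitm1*, which encodes an entry inhibitor of the cell membrane, had a signal of 250 ± 25.6 in Colon26, 40.0 ± 5.78 in LuM1 and 15731 ± 1573 in NM11 cells. NM11 cells were 62.8-fold above Colon26 and 393-fold above LuM1 cells, the largest ratio of any member in either comparison. *Ifitm3*, its direct neighbour, gave 30490 ± 3049, 35755 ± 3575 and 61132 ± 6113, which is 2.005-fold higher in NM11 than in Colon26 cells and lies at the threshold. *Bst2*, whose product tetherin holds budding virus at the membrane, gave 4105 ± 411, 7145 ± 715 and 10605 ± 1060.

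A pair of adjacent genes, *Rsad2* and *Cmpk2*, went apart. *Rsad2* encodes viperin, which makes a chain-terminating nucleotide from the product of the kinase encoded by *Cmpk2*. *Rsad2* was not well above background in Colon26 (22.9) and LuM1 cells (4.24) and gave 190 ± 19.4 in NM11 cells, at least 7.20-fold and at least 9.44-fold higher, whereas its other probe was not well above background in any line (18.2 in NM11 cells). *Cmpk2* gave 343 ± 34.8 in Colon26 and 102 ± 11.1 in NM11 cells and was not well above background in LuM1 cells (8.71). It was the single member at least 2-fold lower in NM11 than in Colon26 cells, by 3.37-fold, and Colon26 cells stood at least 17.0-fold above LuM1 cells.

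Among the remaining effectors, *Ifi44* stood out in NM11 cells. It was not well above background in Colon26 cells (22.1) and gave 70.9 ± 8.71 in LuM1 and 956 ± 95.7 in NM11 cells, at least 36.2-fold higher in NM11 than in Colon26 cells. *Zbp1*, a sensor of left-handed double helices that can trigger cell death, gave 109 ± 12.7, 254 ± 26.0 and 1343 ± 134. *Xaf1*, an antagonist of an inhibitor of apoptosis, gave 155 ± 16.7, 529 ± 53.1 and 1824 ± 182. Both had their highest signal in NM11 and their lowest in Colon26 cells, with NM11 12.3-fold and 11.7-fold above Colon26 cells.

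*Rtp4*, which encodes a receptor-transporting protein, gave 677 ± 68.0 in Colon26, 1102 ± 110 in LuM1 and 5262 ± 526 in NM11 cells. *Ifi35* gave 3316 ± 332, 3748 ± 375 and 9465 ± 947, and *Ifi27* gave 11721 ± 1172, 19334 ± 1933 and 24089 ± 2409. These genes passed the threshold in NM11 cells and not in LuM1 cells, and for *Ifi27* the ratio of 2.06-fold lay just above it. *Isg20*, an RNA exonuclease, ran the other way, with 4116 ± 412 in Colon26, 1996 ± 200 in LuM1 and 2295 ± 229 in NM11 cells. The double-stranded RNA kinase PKR, encoded by *Eif2ak2*, gave 1094 ± 110, 1251 ± 125 and 1069 ± 107, the flattest profile of the list. *Samhd1*, which lowers the pool of deoxynucleotides, gave 4414 ± 441, 3047 ± 305 and 5751 ± 575, so that its lowest and highest lines were 1.89-fold apart. Its other probes lay just past the threshold between the sublines, with log2 ratios of LuM1 over NM11 of -1.03 and -1.05, against -0.92 for the probe used.

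The ADP-ribosyltransferase group differed more evenly. NM11 cells exceeded Colon26 cells by at least 2-fold in all 4 genes, from 2.30-fold for *Parp9* to 7.82-fold for *Parp14*. *Parp14* gave 114 ± 12.8 in Colon26, 687 ± 68.9 in LuM1 and 888 ± 89.0 in NM11 cells. *Dtx3l*, a ubiquitin ligase that works as a complex with PARP9 and lies between *Parp14* and *Parp9* on chromosome 16, gave 298 ± 30.3, 566 ± 56.7 and 855 ± 85.6. *Parp9* gave 294 ± 30.0, 480 ± 48.2 and 677 ± 67.8, and *Parp12* gave 174 ± 18.3, 333 ± 33.5 and 420 ± 42.2. No gene of the group was 2-fold apart between the sublines, and the group's median log2 ratio of LuM1 over NM11, -0.43, turned to 0.16 when arrays were scaled to *Hprt*.

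The interferon-inducible GTPases, which assemble on the membranes of vacuoles that hold pathogens, were at least 2-fold higher in NM11 than in Colon26 cells for all 10 genes and in LuM1 cells for 8 of 10. *Gbp2* was the sole guanylate-binding protein gene well above background in Colon26 cells, with 28.6 ± 6.38, against 368 ± 37.0 in LuM1 and 919 ± 92.0 in NM11 cells. NM11 cells stood 32.1-fold and LuM1 cells 12.9-fold above Colon26 cells. *Gbp3* gave 21.3 in Colon26, not well above background, and 128 ± 13.6 in LuM1 and 410 ± 41.2 in NM11 cells, at least 4.84-fold and at least 15.5-fold higher. *Gbp4* gave 10.2, not well above background, 154 ± 16.2 and 339 ± 34.2. *Gbp6*, like *Gbp4* on chromosome 5, gave 5.35, not well above background, 64.6 ± 7.64 and 163 ± 16.8. Each of these genes was low in Colon26, intermediate in LuM1 and high in NM11 cells.

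*Gbp5* and *Gbp7* lie in a row with *Gbp3* on chromosome 3. *Gbp5* had the same order of the lines at a lower signal. It was not well above background in Colon26 cells (10.8), gave 27.5 ± 5.28 in LuM1 and 66.4 ± 7.87 in NM11 cells, and passed the threshold in NM11 cells alone, by at least 2.51-fold, since its bound in LuM1 cells was 1.04-fold. *Gbp7* was not well above background in Colon26 cells (13.0) and gave 111 ± 11.8 in LuM1 and 86.5 ± 9.51 in NM11 cells, with the sublines within the error of each other. Guanylate-binding protein genes are close copies, and cross-hybridization between their probes was not tested.

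The immunity-related GTPases repeated the order of the lines. *Irgm1*, which encodes a regulator of the family, had a signal of 479 ± 48.3 in Colon26, 833 ± 83.4 in LuM1 and 1525 ± 153 in NM11 cells. *Igtp* gave 187 ± 19.7, 630 ± 63.2 and 1912 ± 191, and its neighbour *Irgm2* gave 132 ± 14.5, 661 ± 66.2 and 1370 ± 137. *Iigp1*, an effector of the family, was not well above background in Colon26 cells (5.69) and gave 92.1 ± 10.2 and 260 ± 26.3. The neighbours *Igtp* and *Irgm2*, whose start regions are printed above, were 10.2-fold and 10.4-fold higher in NM11 than in Colon26 cells. The last member, *Socs1*, encodes a feedback inhibitor of JAK kinases and gave 986 ± 98.8, 704 ± 70.5 and 636 ± 63.8. It held a pair of overlapping ISRE core matches, and its lines lay within 1.55-fold.

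The other genes of the pathway were taken as a separate list of 47, of which 44 had a named probe. At the threshold of 2-fold, 9 of 34 were higher and 0 lower in LuM1 than in Colon26 cells, 4 of 33 were higher and 1 lower in NM11 than in Colon26 cells, and between the sublines 5 of 34 were higher and 2 lower in LuM1 cells. These are 26.5%, 12.1% and 14.7% higher, where 12.9%, 8.17% and 11.1% of all genes were. Lower were 0%, 3.03% and 5.88%, where 11.7%, 7.74% and 8.5% of all genes were. The shares higher for NM11 over Colon26 and for LuM1 over NM11 thus lay near those of all genes. The interferons themselves gave little signal. *Ifnb1*, the gene of interferon beta, was not well above background in Colon26 (5.25), LuM1 (5.65) or NM11 cells (13.0), and neither was *Ifng*, the gene of interferon gamma (5.27, 4.05 and 3.88). Of 15 ligand genes with a named probe, 6 were measured on all 3 arrays and none of these was 2-fold apart between any lines. They were *Ifna1*, *Ifna2*, *Ifna5*, *Ifna9*, *Ifna14* and *Ifnl3*. The *Ifna* genes are close copies, and cross-hybridization between their probes was not tested. *Ifnl3*, of the lambda interferons, gave 101 ± 12.04, 77.4 ± 9.31 and 92.4 ± 10.3.

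The 5 measured receptor genes lay within 2-fold by their brightest probe. *Ifnar1* of the type I receptor gave 2152 ± 215 in Colon26, 2849 ± 285 in LuM1 and 2174 ± 217 in NM11 cells, and *Ifngr1* of the interferon gamma receptor gave 1356 ± 136, 1987 ± 199 and 2227 ± 223. For *Ifnar2*, the other chain of the type I receptor, the probes disagreed, since the brightest gave 1936 ± 194, 1739 ± 174 and 1581 ± 158 and another gave 404 ± 40.7, 906 ± 90.7 and 890 ± 89.1. *Ifnlr1*, specific to lambda interferons, was not well above background on any array. Below the receptors, the kinase genes differed among themselves, since *Jak2* gave 557 ± 56.0, 2334 ± 233 and 1285 ± 129, whereas *Jak1* and *Tyk2* stayed within 2-fold. *Jak2* was thus highest in LuM1 cells and at least 2-fold higher in both sublines than in Colon26 cells.

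Several regulators were highest in LuM1 cells, unlike most members of the list. *Irf8*, a factor of myeloid cells, gave 59.0 ± 8.18 in Colon26 and 1575 ± 157 in LuM1 cells and was not well above background in NM11 cells (9.99). *Irf5* was well above background in LuM1 cells alone (63.9 ± 8.16). *Ikbke*, which encodes a kinase that activates IRF3 and IRF7, gave 71.9 ± 9.10, 422 ± 42.5 and 49.5 ± 6.43, and *Tlr7*, a sensor of single-stranded RNA, gave 204 ± 21.2, 673 ± 67.5 and 321 ± 32.3. The probes of *Tlr7* disagreed, since another was well above background in LuM1 cells alone (432 ± 43.4) and one more in no line. A second probe of *Ikbke* was not well above background in any line. *Ptpn6*, which encodes a phosphatase of cytokine receptors, gave 143 ± 15.4, 948 ± 94.9 and 86.9 ± 9.66. Its probes disagreed on the size, though LuM1 cells were highest by each. With the probe used, the log2 ratios of LuM1 cells were 2.73 over Colon26 and 3.45 over NM11 cells. They were 2.67 and 3.54 with another probe, and 1.02 and 0.78 with the dimmest. By the dimmest, NM11 cells did not fall below Colon26 cells (log2 ratio 0.24, against -0.72 for the probe used). *Nlrc5*, the activator of class I antigen presentation genes, gave 105 ± 11.9, 2814 ± 281 and 1771 ± 177, and was thus high in both sublines.

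Sensing of DNA in the cytosol runs from cGAS (*Mb21d1*) to STING (*Tmem173*). *Mb21d1* gave 2703 ± 270 in Colon26, 1494 ± 149 in LuM1 and 4114 ± 411 in NM11 cells, and *Tmem173* gave 2326 ± 233, 6007 ± 601 and 5056 ± 506. Of these, *Mb21d1* was lowest in LuM1 and highest in NM11 cells, while *Tmem173* was at least 2-fold higher in both sublines. *Myd88*, the adaptor of most Toll-like receptors, gave 2612 ± 261, 2044 ± 204 and 4419 ± 442. *Irf3*, *Mavs*, *Tbk1*, *Ticam1* and *Tlr9* stayed within 2-fold between all lines. The inhibitor gene *Socs3* gave 2583 ± 258, 12770 ± 1277 and 8941 ± 894, which differs from *Socs1* of the list.

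**Figure D4:**
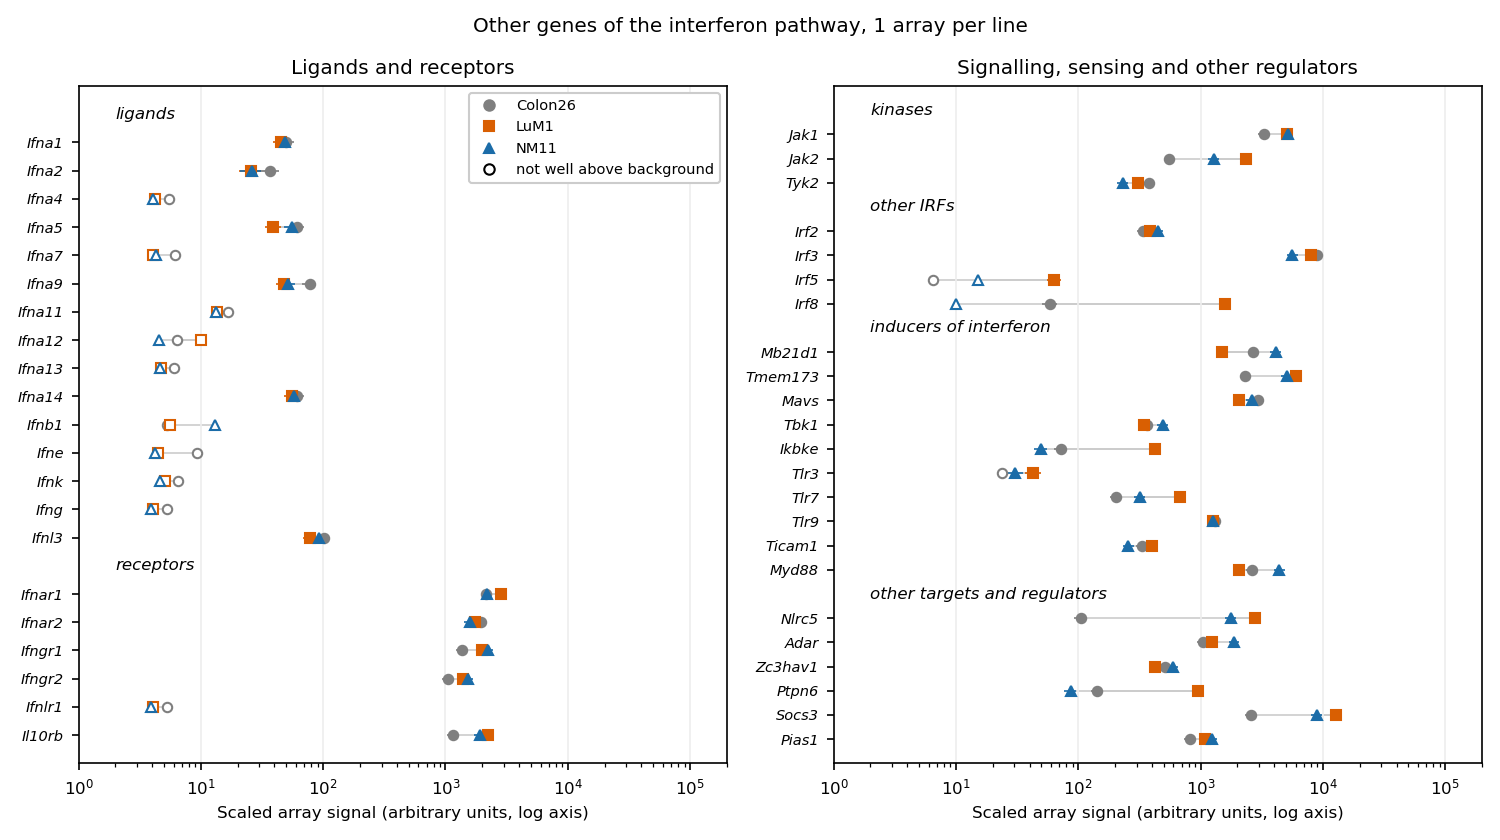
Scaled signal (log axis, arbitrary units) of the other 44 genes of the interferon pathway in Colon26 (grey circles), LuM1 (orange squares) and NM11 cells (blue triangles), by role. Bars are the scanner error and open symbols mark signals not well above background. Ligand genes sit at or near background, measured receptor genes lie within 2-fold, and Irf8, Ikbke and Ptpn6 are highest in LuM1 cells.

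Markers of cell types were read on the same arrays. The epithelial markers *Cdh1*, *Krt18*, *Krt19* and *Vil1* were not well above background in any line, *Epcam* was so in LuM1 cells alone (28.0 ± 5.18), and *Krt8*, *Krt20* and *Cdx2* were measured in all lines. The summed signal of the 8 epithelial markers was 1154 in Colon26, 441 in LuM1 and 387 in NM11 cells, a sum carried by *Krt20* (651 ± 65.4, 54.5 ± 7.03 and 157 ± 16.3) and *Cdx2*, whereas *Krt8* was highest in LuM1 cells (28.9 ± 6.36, 108 ± 11.6 and 37.1 ± 5.59). The leukocyte marker *Ptprc* and the macrophage marker *Adgre1* were not well above background on any array, and the summed signal of the 7 leukocyte markers was 6537, 13330 and 5808, with *Cd68* at 172 ± 18.1, 5251 ± 525 and 299 ± 30.2. Of 5 fibroblast markers, *Dcn* and *Thy1* stayed near background in Colon26 cells and reached 27503 ± 2750 and 19560 ± 1956 in LuM1 and 9599 ± 960 and 15416 ± 1542 in NM11 cells, and *Pdgfra* was 18.2-fold and 5.90-fold above Colon26 cells. *Col1a2* gave 59896 ± 5990 in Colon26, 49.6 ± 6.89 in LuM1 and 85275 ± 8527 in NM11 cells. The summed signal of the fibroblast markers, carried by the brightest, was 65040, 53320 and 117600. Since signals of different genes are not comparable, the sums given here follow the brightest probes and do not measure a share of cells. *Col1a1* gave 4918 ± 491.8 in Colon26, 2247 ± 224.7 in LuM1 and 6045 ± 604.5 in NM11 cells. *Dcn*, *Thy1* and *Pdgfra* were thus higher in both sublines, whereas *Col1a1* and *Col1a2* were lowest in LuM1 cells. The fibroblast markers therefore did not share 1 order of the lines. *Dcn* and *Pdgfra* were highest in LuM1 cells, the sublines did not differ beyond the error for *Thy1*, and the part of these markers in the result was not tested. In RNA from whole cultures, a higher level in every cell and a larger share of cells with the gene cannot be told apart.

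Of 18 members with several probes, 4 (*Oas2*, *Parp9*, *Rsad2* and *Xaf1*) had a probe detected in no line, which gave no ratio. For members with at least 2 measured probes, the log2 ratios had the same sign in 10 of 10 genes for LuM1 over Colon26, 10 of 10 for NM11 over Colon26 and 13 of 13 for LuM1 over NM11. The median range between probes was 0.14, 0.11 and 0.11 on the log2 scale. The widest was that of *Irf9* over Colon26 (1.17), and in the comparison of the sublines that of *Zbp1* (1.08).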

How the data were processed

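RNA from 3 cell lines was measured on 1 single-colour Agilent array each. The authors deposited spot intensity values from Feature Extraction 11.5.1.1 (per the submitters' processing notes), already background-subtracted and detrended on a linear scale, with flags of 0 or 1 for outlier, saturation and detection. The series' table of intensity values that the authors deposited equals these signals times 0.654 (Colon26), 0.829 (LuM1) and 0.706 (NM11).

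Control spots and 137, 74 and 99 outlier spots were left out, no probe was saturated, and spots of the 300 repeated probes were averaged. Each array was scaled from its 75th percentile (581.1, 625.1 and 551.5) to 585.1. Of 56605 probes, 32994 (58.3%) were named through RefSeq accessions (GRCm38.p6), and a gene's brightest probe represented it. No probe coordinates are given, since the array's design used an earlier genome build. A probe not well above background entered a ratio as a bound, taken at whichever was higher, its own signal or the array's lowest well-above-background signal (26.4, 20.1 and 19.6), and pairs with both arrays below background or a bound under 1 got no ratio. A 2-fold difference was the threshold, and a difference beyond the error exceeded 2 times the combined scanner error.

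The members, gene lists and motifs were chosen with earlier results of these data known, and 1 gene of the pathway list is not reported here. Every member was accounted for, and values are given for genes at least 2-fold apart between any lines and the 5 closest to equal. The 12 alternatives were signals left unscaled or scaled to *Hprt*, to the E1A spike-ins or to the median measured probe, quantile normalization, normexp with an offset of 50 (on the median brightness), the authors' values, looser detection, no filter, the mean over probes, the probe brightest in Colon26, and 4-fold. The analysis was tested on simulated data. Python 3.11.15 with numpy 2.4.6, pandas 2.3.3 and matplotlib 3.10.9, and R 4.3.3 with limma 3.58.1, were used.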

Additional observations from a re-analysis of the deposited data

How the results depend on the processing

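No ratio of an interferon-stimulated gene at least 2-fold in the settings of the report changed sign under any of the 11 alternatives that change values in which it had a value. For scaling by 1 factor per array this was fixed in advance. The largest such shift was 0.59, with *Hprt* for LuM1 over NM11, and a 2-fold ratio is a log2 ratio of 1. The sizes did change. For LuM1 over Colon26 cells, the median log2 ratio of 0.99 became 0.71 with normexp, 1.43 with the authors' values, 1.26 with looser detection and 1.30 with no filter on dim probes, and the count of 27 genes at least 2-fold higher was 18 with normexp and 34 with the authors' values, while 10 were at least 4-fold higher. For NM11 over Colon26 cells, the median of 1.99 became 1.50 with scaling to *Hprt*, 1.69 with normexp, 2.59 with looser detection and 2.68 with no filter, and 27 genes were at least 4-fold higher. The count of genes at least 2-fold lower in NM11 cells, 1, became 3 with *Hprt*, 0 with normexp and 0 at 4-fold. For LuM1 over NM11 cells, the median of -1.04 became -0.45 with *Hprt*, -0.82 with the E1A spike-ins and -0.63 with the authors' values. The count of genes lower in LuM1 cells, 27, became 17 with *Hprt* and 10 at 4-fold, and 1 gene was higher with *Hprt* and 1 with the authors' values.

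No paired analysis was possible because each line has a single array, and no alternative leaves out a replicate. With 1 culture per line, a difference between lines cannot be told apart from one between cultures. Signals near background in Colon26 cells limit *Gbp3* to *Gbp7*, *Iigp1*, *Oas3*, *Rsad2* and *Ifi44* to bounds, and signals near background in LuM1 cells limit *Cmpk2* and *Rsad2*. In Colon26 cells *Gbp2* (28.6 ± 6.38), *Oas1g* (30.9 ± 6.86) and *Ifit3* (32.1 ± 6.42) lay just above the lowest well-above-background signal, 26.4. The scanner error of their log2 ratios over Colon26 was 0.32 to 0.35.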
